A study of Rattus norvegicus with 34 samples.

Results

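Retinal gene expression of PKD rats injected with control liposomes was compared to that of untreated Sprague Dawley (SD) rats, using 12 of the 34 samples of the series. All 44 specific genes of a TaqMan microfluidic card were included, whatever their values. The PKD + Controlliposomes group consisted of 6 transgenic PKD2(HA-1/703-CMV-247) rats, which carry a truncated polycystin-2 driven by the CMV promoter. They had received 3 µl of liposomes without clodronate into the vitreous at 4 and 8 weeks of age. The SD group consisted of 6 uninjected rats without the transgene. Retinas of both groups were taken at 9 weeks of age, a week past the last injection of the liposome-treated rats. The groups differed in transgene, injection, and liposomes at once, and the shares of these in a difference cannot be told apart between them.

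The CMV promoter is active in many cell types, so the transgene is not restricted to the retina or to one of its cells. In PKD rats, photoreceptors degenerate, glia become activated, and capillaries are lost afterward. Stressed photoreceptors release endothelin 2, to which Müller cells respond. Müller cells are the main macroglia of the retina and upregulate the filament gene *Gfap* upon nearly every injury. Interleukin 6 type cytokines signal through STAT3, which in turn induces the feedback inhibitor *Socs3*. Microglia, the resident macrophages, express complement and Fc receptors and clear debris. Liposomes are taken up by such phagocytes.

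Cq is the PCR cycle at which a signal is called. For each gene, it was subtracted from the average Cq of 4 reference genes, which are 18S, B2m, Mrpl19, and Ywhaz. This is a log2 scale at full amplification efficiency. The SD mean of each gene was set to 0, so that expression values are distances from it. Differences between groups were tested with limma, with adjustment over the 41 genes that could be tested and a threshold of 0.05. Exact permutation tests of the rats are given beside it, for which 6 rats against 6 cannot give a p below 0.00216. The rats of each group are called A to F.

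Each card had 48 wells, and 34 of the 576 wells of the 12 rats had no Cq. SD rat C stood apart from the other SD rats. It had the highest value of the SD rats in 14 of the 23 genes with higher expression in liposome-treated PKD rats, with a median of 0.90 over these genes. Without it, 24 genes passed, 22 of them higher and 2 lower. *Il1b* and *Nos2* were the genes lost. The card holds no marker gene of retinal neurons, so the tissue label could not be checked against the neurons. *Gfap* of macroglia and *Aif1*, *Itgam*, *Tyrobp*, *Trem2*, and *Cd74* of microglia and macrophages had a Cq in every rat. As the RNA came from whole retinas, more cells of a type and more RNA per cell cannot be told apart.

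Control liposome-treated PKD rats differed from SD rats in 26 of the 41 tested genes (63.4%). Expression was higher for 23 genes (56.1%) and lower for 3 genes (7.32%). The median log2 difference of all tested genes was 0.75, and 34 of the 41 differences were above 0. The card was designed around retinal inflammation and vasoregression, so that these shares describe this panel and not the transcriptome. The lists by role below were drawn up with earlier results of these data known, so their counts and medians are descriptions only. For 12 genes (29.3%), the groups did not overlap. These were *Socs3*, *Edn2*, *Gfap*, *Fgf2*, *C3*, *Itgam*, *Tnfrsf12a*, *Lcn2*, *Tyrobp*, *Sphk1*, and *Icam1*, which were higher, and *Vegfa*, which was lower. Without SD rat C, 17 genes (41.5%) did not overlap, with *Serpina3n*, *Chi3l1*, *Lgals3*, *Timp1*, and *Cntf* in addition.

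**Figure D1:**
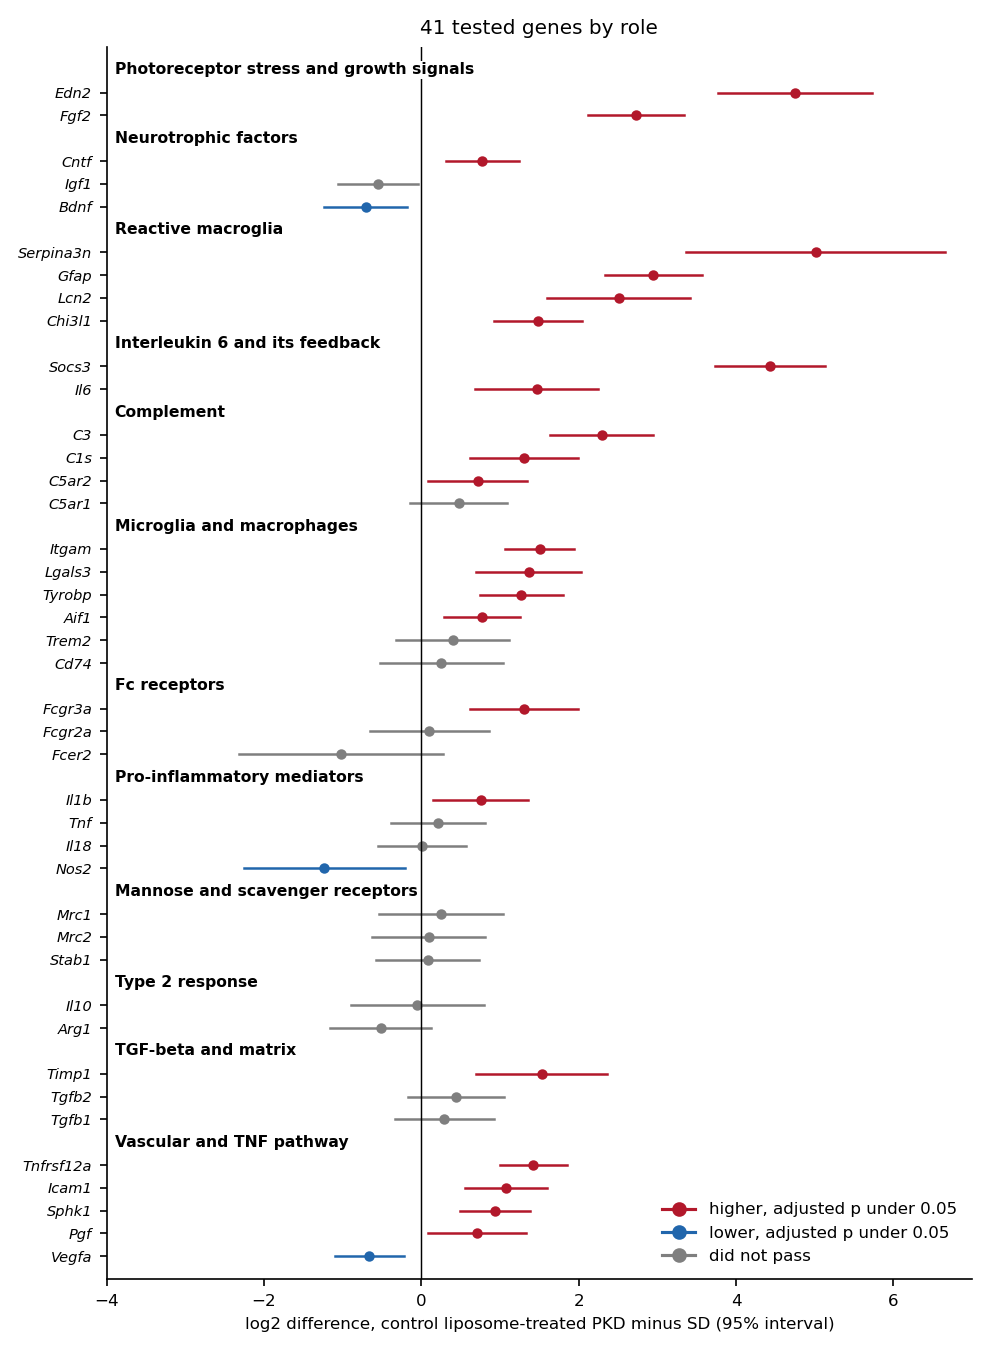
Log2 difference in expression between control liposome-treated PKD and SD rats (x axis, 6 rats each) for the 41 tested genes, grouped by role, with 95% intervals from limma. The 23 red genes lie above 0 and the 3 blue genes below, with *Serpina3n*, *Edn2*, and *Socs3* farthest to the right.

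The photoreceptor stress and growth signals *Edn2* and *Fgf2* were both increased, as were 56.1% of all tested genes, with a median log2 difference of 3.74. *Edn2* encodes endothelin 2. Its expression ranged from −2.21 to 2.73 in SD rats, with a median of −0.064, and from 4.52 to 4.98 in liposome-treated PKD rats, with a median of 4.77. The liposome-treated rats lay within a narrow band above every SD rat. This corresponded to a log2 difference of 4.75 (standard error 0.477, adjusted p = 6.15e-09), or 26.9-fold, and the exact permutation test gave p = 0.00216. *Fgf2*, a growth factor with survival-promoting effects on photoreceptors, ranged from −0.91 to 1.67 in SD rats (median −0.24) and from 2.59 to 2.83 in liposome-treated PKD rats (median 2.73). The log2 difference was 2.73 (standard error 0.294, adjusted p = 1.48e-08), or 6.62-fold. SD rat C was the highest SD rat for both genes. The other SD rats reached 0.70 for *Edn2* and 0.22 for *Fgf2*, and the log2 differences without rat C were 5.29 and 3.06.

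Of the neurotrophic factors, 1 was increased, 1 was decreased, and 1 did not pass. For comparison, 56.1% of all tested genes were increased and 7.32% decreased. *Cntf*, a survival factor for neurons released by glia, was between −0.55 and 0.54 in SD rats (median 0.11) and between 0.46 and 1.17 in liposome-treated PKD rats (median 0.72). Its log2 difference was 0.78 (standard error 0.225, adjusted p = 0.00436). All but 1 of the liposome-treated rats were above every SD rat. *Bdnf*, which signals through the receptor TrkB on neurons and Müller cells, went the other way. It was between −0.41 and 0.38 in SD rats (median 0.030) and between −1.17 and −0.29 in liposome-treated PKD rats (median −0.70). *Bdnf* expression fell by 0.71 on the log2 scale (standard error 0.255, adjusted p = 0.0197), with 5 of the 6 liposome-treated rats below every SD rat. *Bdnf* did not pass without the reference gene 18S, without B2m, with a variance per group, or in 1 of the 12 fits without a single rat, where the adjusted p was 0.0510. *Igf1*, a growth factor supplied in part by microglia, had a log2 difference of −0.55 and an adjusted p of 0.0517. It passed without 18S, Mrpl19, or Ywhaz, and with the mean of the specific genes as normalizer. It also passed with empty wells at 40, with an ordinary linear model, and in 3 of the 12 fits without a single rat.

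All 4 genes of reactive macroglia were increased, with a median log2 difference of 2.73, compared to 56.1% of all tested genes and a median of 0.75. This list was drawn up with earlier results of these data known, so its count is no test of macroglia. *Gfap*, the intermediate filament of astrocytes and of activated Müller cells, was between −0.84 and 1.80 in SD rats (median −0.20). In liposome-treated PKD rats it was between 2.65 and 3.33 (median 2.91). Every liposome-treated rat was above every SD rat, and the log2 difference was 2.95 (standard error 0.300, adjusted p = 6.15e-09), or 7.72-fold. *Serpina3n*, a secreted inhibitor of serine proteases and a marker of reactive astrocytes, had the largest difference on the card and also a wide spread. Its values ran from −2.65 to 4.04 in SD rats (median −0.61) and from 3.65 to 7.46 in liposome-treated PKD rats (median 4.78). The groups overlapped through SD rat C at 4.04, and 4 of the 6 liposome-treated rats were above it. The log2 difference was 5.01 (standard error 0.797, adjusted p = 7.23e-06; exact permutation test, p = 0.00649), or 32.3-fold, and 5.82 without SD rat C.

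*Lcn2*, which encodes the iron-binding protein lipocalin 2, ranged from −2.71 to 1.38 in SD rats (median 0.47) and from 1.71 to 3.11 in liposome-treated PKD rats (median 2.59). SD rat D had the lowest value. The groups did not overlap, and the log2 difference was 2.51 (standard error 0.440, adjusted p = 2.79e-05). *Chi3l1*, a secreted chitinase-like protein of reactive glia, ranged from −0.63 to 1.30 in SD rats (median −0.24) and from 0.97 to 1.71 in liposome-treated PKD rats (median 1.55). Liposome-treated rat C alone was below SD rat C. Its log2 difference was 1.48 (standard error 0.271, adjusted p = 4.72e-05).

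The interleukin 6 pair comprised the cytokine and the feedback inhibitor of its signaling. Both were increased, as were 56.1% of all tested genes. *Socs3* was between −1.29 and 1.83 in SD rats (median −0.33) and between 4.23 and 4.58 in liposome-treated PKD rats (median 4.45). Its liposome-treated values lay closer together than the SD values, with standard deviations of 0.129 and 1.10. The log2 difference of *Socs3* was 4.44 (standard error 0.340, adjusted p = 4.66e-11), or 21.7-fold, the smallest p-value on the card. *Il6* itself moved less, from −1.78 to 1.06 in SD rats (median 0.42) to 0.83 to 2.22 in liposome-treated PKD rats (median 1.46). Of the 6 liposome-treated rats, 4 were above every SD rat. The log2 difference of *Il6* was 1.47 (standard error 0.378, adjusted p = 0.00165; exact permutation test, p = 0.00649). The Cq values of *Il6* were late, from 31.9 to 35.16 in SD and from 31.1 to 32.5 in liposome-treated PKD rats. SD rat E had the only Cq above 35 in the 12 rats, and with it the lowest *Il6* value. *Il6* also passed with Cq values above 35 dropped, but the precision of single wells at such late Cq values was not tested.

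**Figure D2:**
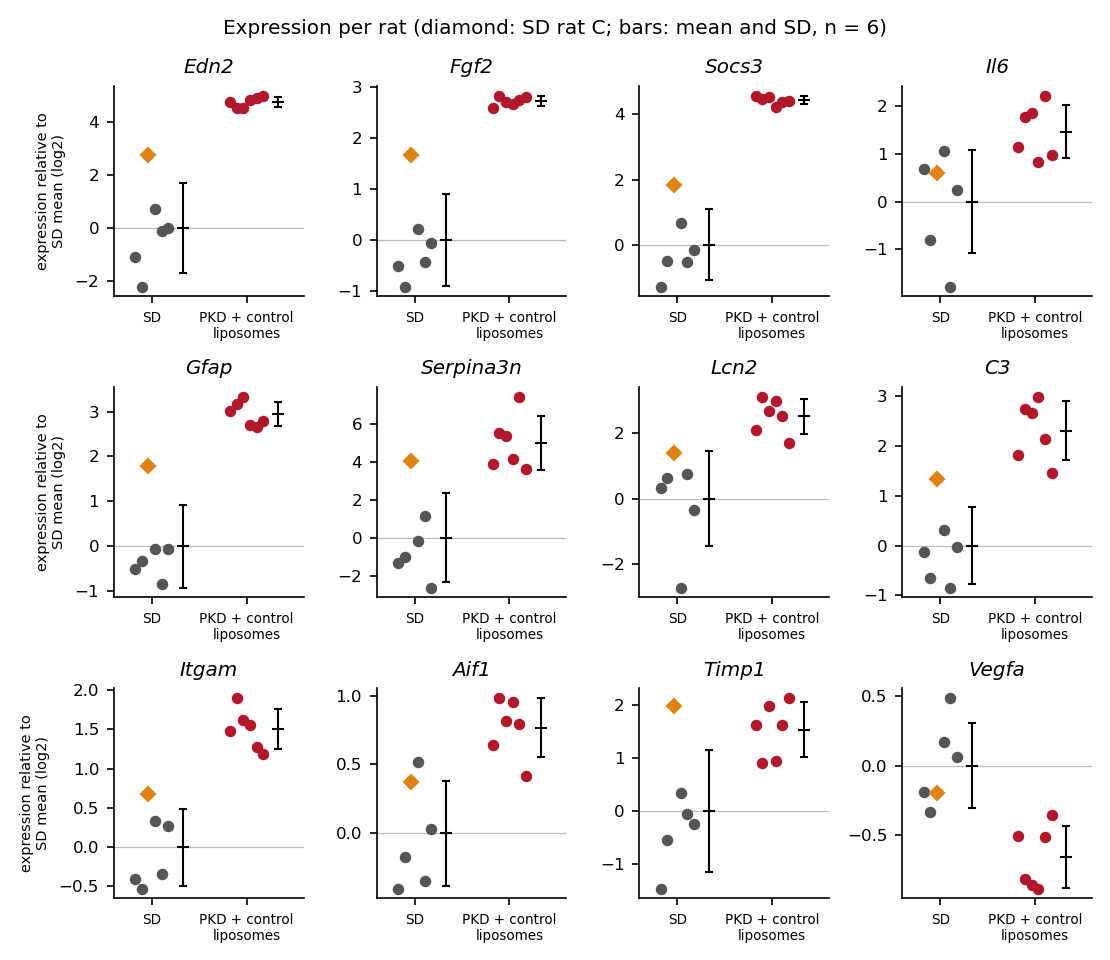
Expression relative to the SD mean (y axis, log2 scale, with a separate range for each gene) in each of 6 SD and 6 control liposome-treated PKD rats for 12 genes, with mean and standard deviation. SD rat C (diamond) lies nearest to the liposome-treated rats for *Edn2*, *Fgf2*, *Socs3*, *Gfap*, and *C3*, and within them for *Serpina3n* and *Timp1*.

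Among the complement genes, 3 of 4 were increased, with a median log2 difference of 1.01. This is near the panel as a whole, with 23 of 41 genes (56.1%) higher and a median of 0.75. *C3*, the component on which all complement pathways converge, was between −0.85 and 1.32 in SD rats (median −0.077) and between 1.45 and 2.98 in liposome-treated PKD rats (median 2.40). The lowest liposome-treated rat was just above SD rat C. The log2 difference was 2.30 (standard error 0.318, adjusted p = 1.18e-06), or 4.91-fold. *C1s*, a protease of the classical pathway, was between −1.09 and 1.15 in SD rats (median −0.25) and between 0.65 and 1.99 in liposome-treated PKD rats (median 1.37). It had a log2 difference of 1.30 (standard error 0.332, adjusted p = 0.00159), with 4 of the 6 liposome-treated rats above every SD rat. The receptors for the anaphylatoxin C5a followed with smaller differences. *C5ar2* was between −0.72 and 0.67 in SD rats (median 0.024) and between 0.17 and 1.45 in liposome-treated PKD rats (median 0.68). Its log2 difference of 0.71 (standard error 0.303, adjusted p = 0.0435) did not pass the exact permutation test before adjustment (p = 0.0606) and passed in 5 of the 12 fits without a single rat. *C5ar1* had a log2 difference of 0.47 and did not pass (adjusted p = 0.172).

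Of the 6 microglia and macrophage genes, 4 were increased, with a median log2 difference of 1.02, which is also near the 56.1% and the median of 0.75 of all tested genes. *Itgam*, the integrin subunit of complement receptor 3, was between −0.53 and 0.67 in SD rats (median −0.037) and between 1.19 and 1.91 in liposome-treated PKD rats (median 1.52). The groups did not overlap. The log2 difference was 1.50 (standard error 0.214, adjusted p = 1.52e-06), or 2.84-fold. *Tyrobp*, the adaptor through which several activating receptors of myeloid cells signal, was between −0.64 and 0.69 in SD rats (median 0.017) and between 0.81 and 1.85 in liposome-treated PKD rats (median 1.19). It had a log2 difference of 1.27 (standard error 0.255, adjusted p = 0.000147), again without overlap.

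*Lgals3*, a galectin of phagocytosing cells, ranged from −0.83 to 1.15 in SD rats (median −0.092) and from 0.68 to 2.07 in liposome-treated PKD rats (median 1.49). Its log2 difference was 1.36 (standard error 0.322, adjusted p = 0.000794), and SD rat C was above 2 of the liposome-treated rats. *Aif1*, which encodes the microglial marker Iba1, was between −0.40 and 0.52 in SD rats (median −0.072) and between 0.41 and 0.99 in liposome-treated PKD rats (median 0.81). The increase of *Aif1* was smaller, at 0.77 on the log2 scale (standard error 0.236, adjusted p = 0.00656), or 1.70-fold, and 5 of the 6 liposome-treated rats were above every SD rat. *Trem2*, a lipid-sensing receptor that signals through Tyrobp, had a log2 difference of 0.40 (95% interval −0.32 to 1.11, adjusted p = 0.341). *Cd74*, the invariant chain of MHC class II, had a log2 difference of 0.26 (95% interval −0.53 to 1.04, adjusted p = 0.591).

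Of the Fc receptors, which bind the constant part of antibodies, 1 of 3 was increased, compared to 56.1% of all tested genes. *Fcgr3a*, an activating receptor for IgG, was between −0.90 and 1.24 in SD rats (median −0.27) and between 0.74 and 1.76 in liposome-treated PKD rats (median 1.34). Its log2 difference was 1.30 (standard error 0.333, adjusted p = 0.00159), and 3 of the 6 liposome-treated rats were above every SD rat. *Fcgr2a* had a log2 difference of 0.10 (adjusted p = 0.843). *Fcer2*, a low-affinity IgE receptor expressed by B cells, had no Cq in 1 SD rat, which the fit left out. Its log2 difference was −1.03 (adjusted p = 0.163). SD rat F was at 3.43 (Cq 29.0), against a median of −0.75 in the measured SD rats. Without 1 rat, the difference ranged from −1.47 to −0.17, and it passed only without SD rat E. The Cq values of *Fcer2* reached 34.1 in SD and 34.2 in liposome-treated PKD rats.

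The pro-inflammatory mediators did not move in one direction, and their median log2 difference was 0.11. *Il1b*, the cytokine released upon inflammasome activation, was between −0.87 and 0.64 in SD rats (median 0.11) and between −0.063 and 1.69 in liposome-treated PKD rats (median 0.59). It passed with a log2 difference of 0.75 (standard error 0.291, adjusted p = 0.0283), but the exact permutation test gave p = 0.0628 before adjustment. *Nos2*, the inducible nitric oxide synthase, was between −1.20 and 0.72 in SD rats (median 0.14) and between −2.34 and 0.36 in liposome-treated PKD rats (median −1.44). *Nos2* expression fell by 1.24 on the log2 scale (standard error 0.497, adjusted p = 0.0342), with 4 of the 6 liposome-treated rats below every SD rat. This call was kept in 4 of the 12 fits without a single rat, while that of *Il1b* was kept in 8. *Tnf* (0.21, adjusted p = 0.566) and *Il18* (0.0083, adjusted p = 0.976) did not pass.

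None of the mannose and scavenger receptors, which macrophages use for uptake of glycoproteins and modified lipoproteins, passed the test in limma. Of all tested genes, 63.4% passed it. The log2 differences were 0.25 for *Mrc1*, 0.093 for *Mrc2*, and 0.080 for *Stab1*, with unadjusted p-values of 0.519, 0.793, and 0.802 and exact permutation p-values of 0.639, 0.833, and 0.842. The widest 95% interval of the 3, that of *Mrc1*, ran from −0.54 to 1.04. In the type 2 response list, *Arg1*, which competes with nitric oxide synthase for arginine, had a log2 difference of −0.52 (adjusted p = 0.161). The anti-inflammatory cytokine *Il10* had a log2 difference of −0.049 (adjusted p = 0.930). The other 3 genes of this list had too few Cq values for a test. *Il13*, a cytokine of type 2 lymphocytes, was measured in 1 of 6 SD rats (Cq 33.3) and 1 of 6 liposome-treated rats (Cq 28.8). *Retnla* was measured in 0 SD rats and 1 liposome-treated rat (Cq 29.7). The chitinase-like gene *Chi3l3* was measured in none of the 12 rats.

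In the TGF-beta and matrix list, *Timp1*, an inhibitor of matrix metalloproteinases, was increased. It was between −1.47 and 1.98 in SD rats (median −0.15) and between 0.90 and 2.13 in liposome-treated PKD rats (median 1.62). SD rat C was above 5 of the 6 liposome-treated rats, whereas the other SD rats reached 0.35. The log2 difference was 1.53 (standard error 0.404, adjusted p = 0.00194) with SD rat C and 1.93 without it. *Tgfb2*, an isoform expressed by neurons and glia, had a log2 difference of 0.44 (adjusted p = 0.197), and *Tgfb1* of 0.29 (adjusted p = 0.437).

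Of the 5 vascular and TNF pathway genes, 4 were increased and 1 was decreased, with 56.1% and 7.32% of all tested genes for comparison. *Tnfrsf12a*, the receptor of the TNF family cytokine TWEAK, was between −0.40 and 0.60 in SD rats (median −0.0063) and between 1.28 and 1.59 in liposome-treated PKD rats (median 1.41). Its log2 difference was 1.42 (standard error 0.207, adjusted p = 1.99e-06). *Icam1*, an adhesion molecule for leukocytes on endothelium and Müller cells, was between −1.06 and 0.74 in SD rats (median 0.15) and between 0.79 and 1.71 in liposome-treated PKD rats (median 1.00). The groups were close but did not overlap, and the log2 difference was 1.08 (standard error 0.251, adjusted p = 0.000731). *Sphk1*, which produces the lipid mediator sphingosine 1-phosphate, had a highest SD value of 0.44 and a lowest liposome-treated value that rounded to the same number. The remaining *Sphk1* values reached down to −0.45 in SD rats (median −0.081) and up to 1.47 in liposome-treated PKD rats (median 0.99), with a log2 difference of 0.94 (standard error 0.217, adjusted p = 0.000731).

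The related angiogenic factors *Vegfa* and *Pgf*, which share the receptor VEGFR1, went in opposite directions. *Vegfa* ranged from −0.33 to 0.49 in SD rats (median −0.065) and from −0.89 to −0.36 in liposome-treated PKD rats (median −0.67). Every liposome-treated rat was below every SD rat, and *Vegfa* fell by 0.66 on the log2 scale (standard error 0.213, adjusted p = 0.00921; exact permutation test, p = 0.00216). *Pgf* was between −1.40 and 0.70 in SD rats (median 0.24) and between 0.0071 and 1.48 in liposome-treated PKD rats (median 0.74). Its log2 difference was 0.71 (standard error 0.303, adjusted p = 0.0444), the exact permutation test gave p = 0.0606, and it passed in 6 of the 12 fits without a single rat. *Vegfa* passed in all 12 of these fits, but not when B2m was left out of the reference genes.

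The spread between rats was not equal. In 34 of the 41 genes, the standard deviation was larger in the 6 SD rats than in the 6 liposome-treated PKD rats, including 21 of the 23 increased genes. SD rat C was the highest SD rat in 14 of the increased genes, rat D in 7, and rat F in 2, while SD rat A was the lowest in 11. Among the liposome-treated rats, rat C was the highest in 8 of the increased genes, and rats F and E were the lowest in 7 and 6. When each group was given its own variance factor, common to all genes, 21 genes passed, 20 higher and 1 lower. This factor does not follow the spread of single genes.

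The liposome-treated rats were also compared with uninjected PKD rats (n = 6) and with PKD rats injected with clodronate liposomes (n = 5). The labels also give 5 PKD + PBS samples, but no column could be tied to them and they were not analysed here. Their differences from SD share the SD rats, so that only direct comparisons were tested. Between control liposome-treated and uninjected PKD rats, 1 of 41 genes passed (2.44%). This was *C3*, at 2.30 ± 0.592 (SD, n = 6) in control liposome-treated and 1.13 ± 0.137 (n = 6) in uninjected PKD rats, a log2 difference of 1.16 (standard error 0.318, adjusted p = 0.0490). In 10 of the 12 fits that left out a rat of these groups, 0 genes passed in limma, with 4 to 8 at an unadjusted p under 0.05. *Itgam* was at 1.50 ± 0.256 and 0.83 ± 0.166 (SD, n = 6 each) and did not overlap between these groups (adjusted p = 0.0844). *Fgf2* did not overlap either and lay in the opposite direction, at 2.73 ± 0.0910 in control liposome-treated and 3.13 ± 0.108 in uninjected PKD rats (SD, n = 6 each), a log2 difference of −0.40 (adjusted p = 0.460). The limma fit shares its variance with the SD rats, whose *Fgf2* values had a standard deviation of 0.905. By exact permutation tests with adjustment over all tested genes, 4 genes passed, *C3*, *Itgam*, and *Fgf2* with an adjusted p of 0.0296 each and *Aif1* with 0.0444. For *C1s* and *Vegfa*, which did not pass (adjusted p = 0.158 and 0.250), the 95% intervals of the difference from uninjected PKD rats ran from 0.18 to 1.55 and from −0.92 to −0.041. The comparison of the injected PKD groups with each other had 2 of 41 genes past the threshold (4.88%). *Aif1* was higher with control liposomes than with clodronate by 0.99 (standard error 0.247, adjusted p = 0.0194). The corresponding difference of *Itgam* was 0.81 (standard error 0.224, adjusted p = 0.0278).

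**Figure D3:**
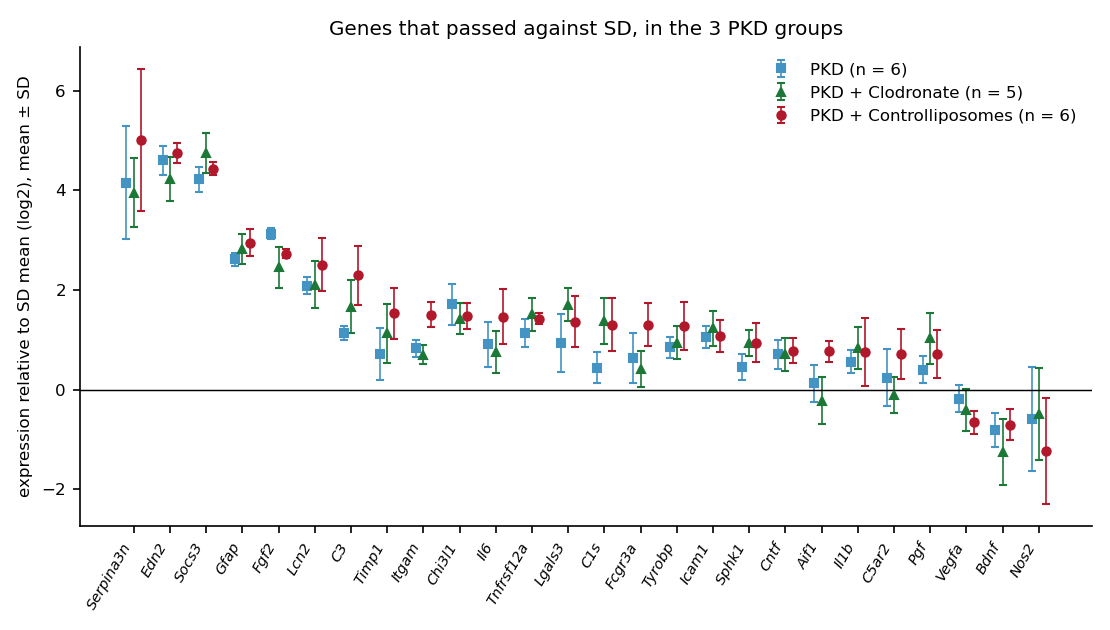
Expression relative to the SD mean (y axis, log2 scale, mean ± standard deviation) of the 26 genes that passed between control liposome-treated PKD and SD rats, in uninjected, clodronate-treated, and control liposome-treated PKD rats. The groups lie close together for *Edn2*, *Socs3*, and *Gfap*. Control liposome-treated rats have the highest mean for many genes, among them *C3*, *Itgam*, *Aif1*, *Lcn2*, and *Timp1*. For others the highest mean is in uninjected (*Fgf2*) or clodronate-treated (*C1s*) rats.

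The reference genes were not at equal Cq in the 2 groups. B2m, the light chain of MHC class I, had a Cq lower by 0.65 cycles in liposome-treated PKD rats, that is, more product (17.2 ± 0.673 against 17.9 ± 0.325, SD, n = 6 each; exact permutation test, p = 0.0563). Mrpl19 and Ywhaz had Cq values higher by 0.51 and 0.58 cycles (exact permutation tests, p = 0.0325 and 0.0281, adjusted p = 0.0812 for both over 5 tests). The ribosomal RNA 18S differed by 0.089 cycles (exact permutation test, p = 0.810). As these opposed each other, the mean of the 4 was 16.4 ± 0.175 in liposome-treated PKD and 16.3 ± 0.342 in SD rats, a difference of 0.13 cycles (exact permutation test, p = 0.437).

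**Figure D4:**
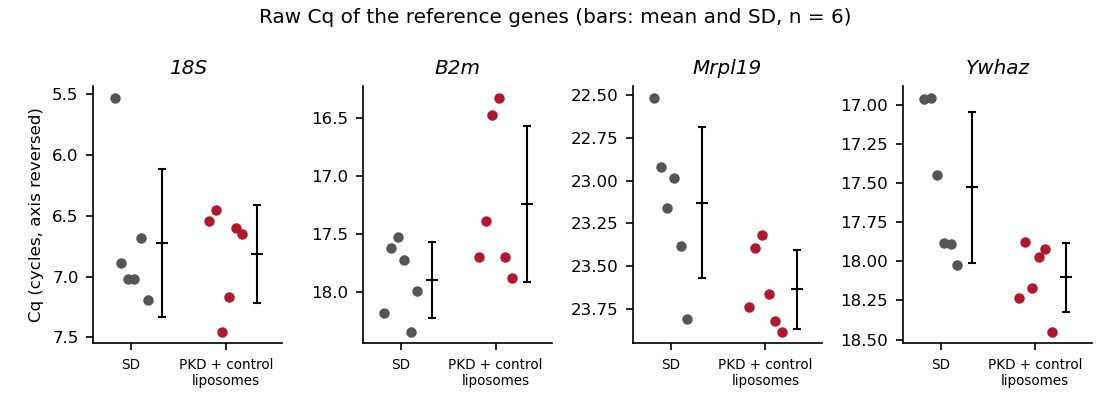
Raw Cq in PCR cycles (y axis, reversed so that more product is higher) of the 4 reference genes in each of 6 SD and 6 control liposome-treated PKD rats, with mean and standard deviation. B2m lies higher and Mrpl19 and Ywhaz lie lower in the liposome-treated rats, with overlap in all 4 genes.

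The choice of normalizer set the direction of the smaller differences. With the mean of the 40 specific genes that had a Cq in every rat in place of the reference genes, the log2 difference of these 40 genes decreased by 1.05 each, and the median of all tested genes was −0.30. Under this setting, 25 genes passed, 8 of them higher and 17 lower, and 11 of the 25 were among the 26 genes above. The 8 higher genes were *Socs3*, *Edn2*, *Gfap*, *Fgf2*, *C3*, *Itgam*, *Serpina3n*, and *Lcn2*. These 8 genes passed with the same sign in each of the alternatives run. In contrast, *Sphk1*, *Cntf*, *Aif1*, *Il1b*, *C5ar2*, and *Pgf* had differences below 0, from −0.11 to −0.34, none of them past the threshold, and the list medians became −0.039 for complement, −0.029 for microglia and macrophages, and −0.11 for the vascular and TNF pathway. The specific-gene mean contains the increased genes themselves, so that it moves with them. Without B2m as a reference gene, 23 genes were higher and 0 lower in limma (also 0 lower at an unadjusted p under 0.05), and *Bdnf*, *Nos2*, and *Vegfa* did not pass.

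**Figure D5:**
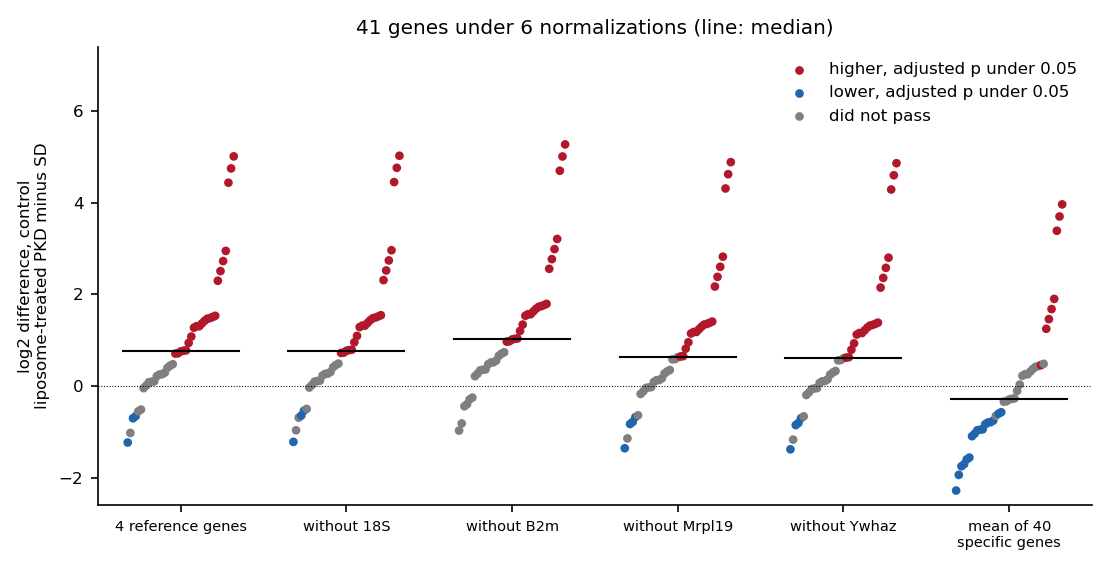
Log2 difference between control liposome-treated PKD and SD rats (y axis) of 41 genes, sorted within each of 6 normalizations (x axis), with the median as a line. The 7 largest differences and that of *Itgam* remained above 0 and past the threshold in each normalization, while the median moved from 0.75 with 4 reference genes to −0.30 with the specific-gene mean.

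As *Socs3* and *Il6* lie on a pathway that acts through STAT factors, the promoters of the increased genes were searched for the STAT motif TTCNNNGAA, which reads the same on both strands. Promoters from 250 bases before to 50 bases after a gene start were taken from RefSeq (rat build GRCr8), which had an entry for 32 of the 44 genes. The motif was present for 7 of the 19 increased genes with an entry (36.8%), for 1 of 2 decreased genes (*Bdnf*), and for 0 of 10 genes that did not pass. Of all 27457 rat genes with an entry, 9.39% have it in a promoter of this length, and of all 33469 promoters, 8.87%. *Il6* and *Socs3* were not among the 7 increased genes with the motif. For a gene without an entry, this does not mean that the motif is absent. The 7 genes were *Itgam*, *Fgf2*, *Serpina3n*, *Icam1*, *Tnfrsf12a*, *C5ar2*, and *Sphk1*. In the first 5, the motif lies between 145 and 86 bases before the start, a stretch chosen after the positions were seen. The motif lies in this stretch in 1.98% of all genes, and also in the decreased *Bdnf*, 135 bases before the start, whereas it begins 217 bases before the start in *C5ar2* and 214 in *Sphk1*. The stretch of the 5 increased genes is printed 5′ to 3′ along the strand of the gene, with the motif in capitals, to show where the matches are.
Itgam (chr1:192089447-192089506, plus strand): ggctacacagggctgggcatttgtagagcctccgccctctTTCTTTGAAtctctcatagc
Fgf2 (chr2:122164309-122164368, plus strand): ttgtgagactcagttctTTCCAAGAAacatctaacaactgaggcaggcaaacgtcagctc
Serpina3n (chr6:129088247-129088306, plus strand): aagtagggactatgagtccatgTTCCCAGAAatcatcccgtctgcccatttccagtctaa
Icam1 (chr8:27829700-27829759, plus strand): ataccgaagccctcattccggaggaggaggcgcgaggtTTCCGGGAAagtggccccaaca
Tnfrsf12a (chr10:13213734-13213793, minus strand): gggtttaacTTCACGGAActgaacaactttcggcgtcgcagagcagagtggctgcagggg

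The motif began 105 bases before the start in *Itgam*, 128 in *Fgf2*, 123 in *Serpina3n*, 107 in *Icam1*, and 136 in *Tnfrsf12a*. The AP-1 motif TGANTCA, also palindromic, was present for 3 of the 19 increased genes (15.8%) and for 3 of the 10 genes that did not pass, compared to 8.04% of all genes. The cyclic AMP response motif TGACGTCA was present for *Il6* only among the increased genes, compared to 1.83% of all promoters. These matches describe the letters of the windows, and binding was not measured.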

How the data were processed

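Retinal RNA of single rats was reverse-transcribed, pre-amplified for 14 cycles, and measured on TaqMan microfluidic cards in a ViiA 7 thermocycler with at most 40 cycles, with 1 well per gene and rat. The authors deposited Cq values, another unit than counts or intensities, in PCR cycles before subtraction of reference genes. Columns are named by animal number only, and their groups come from a list of animals in the supplement of the paper, as no label gives them. Of 34 columns, 23 were used and 11 were not, since no source used here names their group. The gene of a well was found from the supplement, which lists Cq values by gene symbol and gave 1 match within 0.001 cycles for all 48 wells. A second deposited table holds the authors' signed fold changes of group means for PKD against SD and for clodronate-treated against untreated PKD rats, which were not used.

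Expression was the negative delta Cq against the average of the 4 reference genes, and empty wells were left out. The Cq values of the 12 rats ranged from 5.53 to 35.16, with 1 above 35. The copies behind a Cq are unknown, so the number of rats limits the precision. Genes with at least 3 Cq values in each of 4 groups (6 rats each of SD, PKD, and PKD + Controlliposomes and 5 of PKD + Clodronate) were tested with limma 3.58.1 (lmFit and eBayes over the 4 groups, R 4.3.3), two-sided, with a threshold of 0.05 after Benjamini–Hochberg adjustment over 41 genes. Group means were also compared by exact permutation of the rats, two-sided. The procedure was also run on simulated data with known changes, the same spread in all groups, no empty wells, and no shift of the reference genes. The unequal spread and the reference gene differences of the real groups were therefore not covered by it. Tables and plots were made with Python 3.11.15, pandas 2.3.3, and matplotlib 3.10.9.

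All 44 specific genes are named, in 12 lists by role. Genes past the threshold against SD are given by lowest, median, and highest value per group, and the others by their difference. Members and lists were chosen with earlier results of these data known. Alternatives were other normalizers (without each reference gene, or the specific-gene mean), other treatments of wells (empty wells at 40, none above 35, complete genes only), other tests (only 2 groups in the fit, no moderation of variances, exact permutation, a variance per group), and the omission of single rats. Rats are lettered in the column order of the table.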

Additional observations from a re-analysis of the deposited data

Results flagged for a closer look

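In 8 of 90 groups of 6 or fewer rats, 1 rat lay far from the others relative to the range of its group. Chance gives about 1 in 20, or 4.5 groups. *Gfap* was at 1.80 in SD rat C and between −0.84 and −0.055 in the other SD rats. SD rat A was low for *C5ar1* (−1.55, other SD rats 0.036 to 0.72), *Mrc1* (−1.76, others −0.048 to 0.81), and *Fcgr2a* (−1.76, others 0.20 to 0.55), and its 18S Cq was 5.53, with the other SD rats between 6.68 and 7.19. The part of 18S in the low values of this rat was not tested. Control liposome-treated PKD rat C was low for *Chi3l1* (0.97, others 1.51 to 1.71) and high for *Icam1* (1.71, others 0.79 to 1.09) and *Tgfb2* (2.10, others −0.22 to 0.56).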

How the results depend on the processing

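Of the 26 genes that passed between control liposome-treated PKD and SD rats, 21 passed in every fit without 1 rat, and *Bdnf*, *Il1b*, *Nos2*, *C5ar2*, and *Pgf* did not. Without 1 rat, 22 to 27 genes passed, 20 to 23 higher and 2 to 5 lower. Under the specific-gene mean, 8 were higher and 17 lower. No gene (0) was lower without B2m, where 18 of 41 did not pass, and 1 was lower with a variance per group. The log2 differences that changed sign under the specific-gene mean were *Sphk1* −0.11, *Cntf* −0.27, *Aif1* −0.28, *Il1b* −0.30, *C5ar2* −0.33, *Pgf* −0.34, *C5ar1* −0.57, *Tgfb2* −0.61, *Trem2* −0.65, *Tgfb1* −0.76, *Tnf* −0.84, *Cd74* −0.79, *Mrc1* −0.80, *Fcgr2a* −0.95, *Mrc2* −0.96, *Stab1* −0.97, and *Il18* −1.04. Each is 1.05 below its value above, by construction. Without Mrpl19, *Fcgr2a* (−0.025), *Mrc2* (−0.033), *Stab1* (−0.045), and *Il18* (−0.12) turned negative, as they did without Ywhaz (−0.048, −0.056, −0.068, and −0.14). *Il10* was at 0.21 without B2m and *Fcer2* at 0.39 with empty wells at 40. Without 1 rat, genes that had not passed crossed 0, with ranges of −0.073 to 0.49 for *Cd74*, −0.10 to 0.47 for *Mrc1*, −0.25 to 0.32 for *Fcgr2a*, −0.097 to 0.31 for *Mrc2*, −0.17 to 0.27 for *Stab1*, −0.40 to 0.21 for *Il10*, and −0.15 to 0.13 for *Il18*.

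Against uninjected PKD rats, the count of 1 became 3 without 18S, 0 without B2m, Mrpl19, or Ywhaz, 5 with the specific-gene mean, 3 with empty wells at 40, 5 in a fit of the compared groups, 2 with an ordinary linear model, 4 with exact permutation tests, 4 with a variance per group, and 0 to 1 without 1 rat. Against clodronate-treated PKD rats, the count of 2 became 0 without B2m and 1 without Mrpl19, and it rose without 18S. Without 1 rat, this count reached down to 0 and rose above 2 when clodronate-treated rat D was left out. The cause of these changes was not tested. No paired analysis was possible because the columns carry animal numbers and not the replicate numbers of the labels. With 1 well per gene and rat, error of the wells and differences between rats cannot be told apart.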
